A study of Mus musculus with 6 samples.

Results

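The potassium channel subunits of the Kcn gene family were examined in uterus RNA from mice with and without a conditional knockout of Tcf21, a transcription factor gene of the basic helix-loop-helix class. Members were all protein-coding rows of the deposited gene table whose symbol begins with Kcn, with no threshold on expression. This gave 89 genes of the 17393 protein-coding rows and of 26018 rows in all. The 4 antisense rows whose symbols also begin with Kcn were not members. Bulk RNA was sequenced from 6 uteri, 1 library per animal, from untreated female mice that were 6 weeks old and matched for body weight. The 3 control animals were Tcf21f/f, carrying floxed Tcf21 copies with no deletion labelled. The 3 knockout animals, called cKO here, were Tcf21d/d. The sources used here do not give the strain, the Cre driver, the cells in which it acts or the deleted part of the gene. The stated purpose was to look for genes downstream of TCF21 in the development of the uterus.

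Potassium channels let potassium leave the cell and so hold the membrane at negative voltage, which closes voltage-gated calcium channels and limits contraction of smooth muscle. A channel is built from pore-forming subunits, which carry the current, and accessory subunits, which set its gating, its response to calcium or its delivery to the membrane. The myometrium, the smooth muscle wall of the uterus, is known for calcium-activated BK channels, A-type Kv4 channels, ERG channels and Kv7 channels, which restrain its spontaneous contractions. Other members of the family are known mainly from neurons or from skeletal muscle, so the family can also be read by the tissue in which each subunit is best known.

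The promoters of Kcnmb1, Kcnd3 and Kcnf1 are shown because these 3 genes had the smallest p-values of the family between the groups and because TCF21 belongs to a class of factors that binds E-boxes. The sequences are RefSeq promoters on GRCm38.p6, from 250 bases before to 50 bases after the transcription start, written 5′ to 3′ on the strand of the gene, with each E-box (CANNTG) in capitals. Kcnmb1 lies on the plus strand at chr11:33962763-33963062, Kcnd3 on the plus strand at chr3:105451640-105451939 and Kcnf1 on the minus strand at chr12:17176839-17177138.
Kcnmb1: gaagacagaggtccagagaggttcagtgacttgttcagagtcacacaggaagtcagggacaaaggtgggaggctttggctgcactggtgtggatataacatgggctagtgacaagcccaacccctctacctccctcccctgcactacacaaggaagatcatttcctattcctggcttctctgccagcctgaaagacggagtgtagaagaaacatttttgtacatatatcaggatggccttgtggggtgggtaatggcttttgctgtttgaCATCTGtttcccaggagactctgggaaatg
Kcnd3: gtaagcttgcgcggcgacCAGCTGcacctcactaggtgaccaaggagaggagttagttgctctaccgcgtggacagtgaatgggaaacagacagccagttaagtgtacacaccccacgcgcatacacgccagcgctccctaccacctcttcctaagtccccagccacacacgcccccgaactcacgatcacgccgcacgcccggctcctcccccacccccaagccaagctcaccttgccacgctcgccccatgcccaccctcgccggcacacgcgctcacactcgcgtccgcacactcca
Kcnf1: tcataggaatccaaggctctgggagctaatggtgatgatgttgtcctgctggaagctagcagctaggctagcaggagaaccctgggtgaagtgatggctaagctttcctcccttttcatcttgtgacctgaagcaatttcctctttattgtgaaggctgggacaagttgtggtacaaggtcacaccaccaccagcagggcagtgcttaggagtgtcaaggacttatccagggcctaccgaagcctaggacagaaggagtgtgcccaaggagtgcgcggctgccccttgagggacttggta
Searched on both strands, the Kcnmb1 window held 1 E-box (CATCTG), the Kcnd3 window held 1 (CAGCTG) and the Kcnf1 window held 0. Among all 32851 RefSeq promoters of this length, 72.3% held an E-box, and 63 of the 87 promoters of Kcn members (72.4%) did. The more specific word CAGCTG, itself an E-box, was in 16.3% of all promoters and in 22 of the 87 (25.3%). The CArG box, the site of serum response factor in many smooth muscle genes, was in 1.63% of all promoters and in 0 of the 87. These matches describe letters in a window only. RefSeq promoters were matched by symbol for 65 of the 89 members, and the Kcnd3 start used there lies 440 bases from the start of the gene in the deposited table.

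Between 14584450 and 16579573 reads per library fell on genes, and 3 reads, the limit that a count of 0 allows, were worth a normalised count of 2.67 to 3.66. These limits cover counting error only. Tcf21 itself had normalised counts of 341, 152 and 144 in the control libraries and of 26.0, 0 and 0 in the cKO libraries. The uterine genes Pgr, Esr1, Hoxa10, Hoxa11, Hand2 and Emx2 had reads in every library, with sums of 7474, 5281 and 2885 in control and of 2146, 1334 and 1202 in cKO libraries, which did not overlap. Their median log2 fold change was -1.56, and the part of uterine tissue content in the subunit values was not tested. Several libraries also held RNA of other tissues. The 12 skeletal muscle markers took 2.70% to 5.45% of normalised counts in control and 5.48% to 8.24% in cKO libraries, the 5 liver markers took 1.16% in control replicate 1 and at most 0.00633% elsewhere, and the 14 neuron markers took 0.0578% in control replicate 3 and at most 0.0102% elsewhere. The 5 intestinal markers reached 0.00414% in control replicate 2 and at most 0.000466% elsewhere. How far RNA of other tissues entered each result was not tested.

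A subunit was counted as detected in a group when all 3 of its libraries held at least 3 reads. By that rule 59 of the 89 members (66.3%) were detected in control and 54 (60.7%) in cKO uteri, beside 83.1% and 81.7% of all protein-coding rows and 64.5% and 64.2% of all rows. Both groups detected 51 members, control uteri alone 8, cKO uteri alone 3 and neither 27. Of all 26018 rows, both groups detected 15754, control uteri alone 1040, cKO uteri alone 940 and neither 8284. Detected in control alone were Kcnab3, Kcnb2, Kcnd2, Kcng1, Kcnip1, Kcnip4, Kcnk4 and Kcns1, of which Kcnb2, Kcnd2, Kcnip1, Kcnip4 and Kcnk4 are known mainly from neurons. Detected in cKO alone were Kcnj14, Kcnmb4 and Kcnrg, with means of 9.98, 8.36 and 16.9 in cKO and of 1.93, 3.10 and 11.4 in control. No read fell on 11 members in any cKO library and on 4 members, Kcne1, Kcnj13, Kcnj4 and Kcnmb3, in any control library.

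By the tissue in which each is best known, the family was sorted into subunits of smooth muscle, skeletal muscle, neurons and other cells. Of the 16 smooth muscle subunits, 15 were detected in both groups. The exception was Kcnj13, an inward rectifier known from human myometrium, which had 0 reads in all controls and at most a normalised count of 2.79 in cKO libraries. Of the 9 skeletal muscle subunits, 7 were detected in both groups, and Kcna4 and Kcnj5 were not detected in either. Of the 26 neuronal subunits, 18 were detected in control and 14 in cKO uteri, 13 of them in both. Of the 9 subunits of epithelium, blood cells, endothelium or glia, 7 were detected in both groups. The remaining 29 members were on no list, and 9 of them were detected in both groups.

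Levels between genes were compared as normalised counts per kilobase of exon. In control uteri the highest was Kcne4, an accessory subunit of Kv7 and Kv1 channels, at 491 per kilobase. Also among the 7 highest were Kcnj8 at 299, Kcnh2 at 223, Kcnj11 at 165, Kcnj2 at 126 and Kcnmb1 at 119. In cKO uteri Kcnj11 at 273 and Kcnj2 at 170.4 were the highest, Kcna7 at 105 and Kcnj8 at 103 were among the 5 highest, and Kcne4 followed at 69.9. Kcnh2 moved from position 3 to 23 and Kcnmb1 from 7 to 39 among the 89, and Kcnf1 moved from 8 to 56. Of the 5 leading cKO genes, Kcnj11, Kcnj2 and Kcna7 are on the skeletal muscle list.

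**Figure D1:**
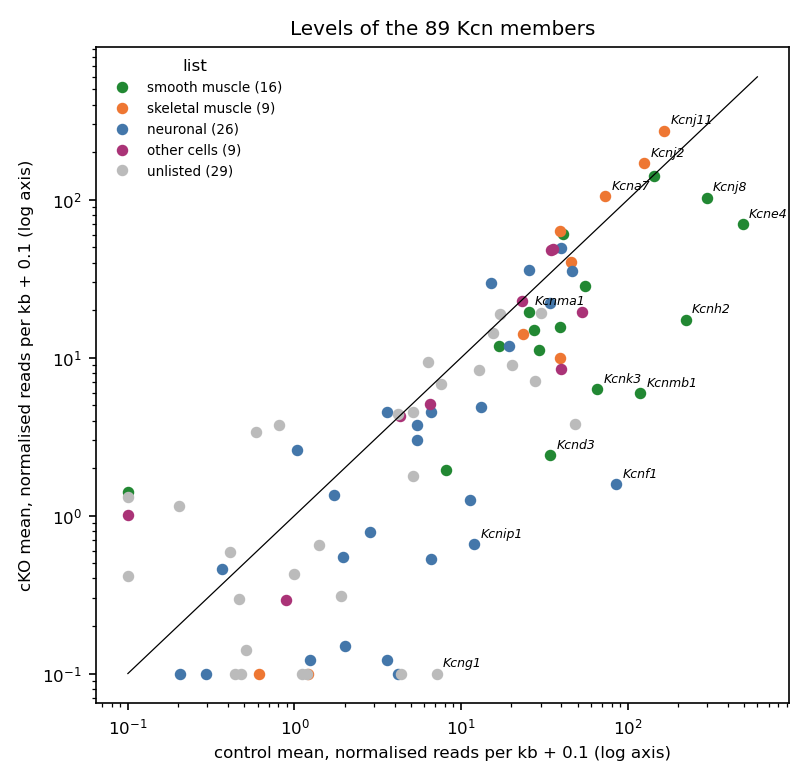
Mean level of each of the 89 Kcn members in control (horizontal) and cKO uteri (vertical), in normalised reads per kilobase of exon plus 0.1 on log axes, coloured by list; the line marks equal levels. Kcne4 is farthest right at 491, and Kcnf1, Kcnmb1, Kcnd3 and Kcnh2 lie far below the line.

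The summed normalised count of the 89 members was 10864, 13958 and 12803 in the control libraries and 7707, 7325 and 8016 in the cKO libraries. Every control sum was above every cKO sum, with means of 12542 ± 1564 and 7683 ± 346 (SD, n = 3), a 1.63-fold difference. Kcne4 made up 23.0% of the net difference of 4859, Kcnh2 20.5%, Kcnj8 10.2%, Kcnmb1 9.77% and Kcnf1 8.25%. These shares depended on single libraries: without control replicate 1 Kcnh2 led with 15.9% and Kcne4 had 14.4%, without control replicate 2 Kcnf1 had 5.07%, and without control replicate 3 Kcnj8 had 5.74%. The smooth muscle subunits summed to 6728 ± 611 in control and 2489 ± 315 in cKO uteri, the neuronal subunits to 2298 ± 803 and 1528 ± 141, and the skeletal muscle subunits to 1921 ± 401 and 2565 ± 373. Of these 3 sums, that of the smooth muscle subunits did not overlap between the groups, while both others did.

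Of the 89 members, 55 had enough reads to be tested with the other genes by limma on log2(normalised count + 1), a scale that understates the change of low genes. At a Benjamini-Hochberg adjusted p under 0.05 over the 16314 genes tested, 6 of the 55 (10.9%) were lower in cKO uteri and 0 higher, beside 0.889% lower and 0.276% higher among all genes tested. Those described here are Kcnmb1, Kcnd3, Kcnf1, Kcnip1 and Kcnh2. With no adjustment, 16 members were lower and 3 higher at a p under 0.05, together 34.5% of the 55 beside 13.7% of all genes. In 14 members all cKO libraries were below all controls (10.5% of all genes) and in 4 all were above (9.04%). The median log2 fold change was -0.57 over the 55 members and 0.002 over all genes tested. Of the 55, 4 lacked 3 reads in some library of 1 group, and 34 members were not tested. Without control replicate 1, 10 members were called lower. edgeR on the recovered reads called 5 members lower and 0 higher (0.736% and 0.19% of all genes), while DESeq2 called 13 lower and 1 higher (3.54% and 1.72%). By the adjusted p of the authors' deposited table, members lower in cKO numbered 16 and members higher 1, beside 2.37% and 0.883% of its rows, and the 16 included all 6.

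**Figure D2:**
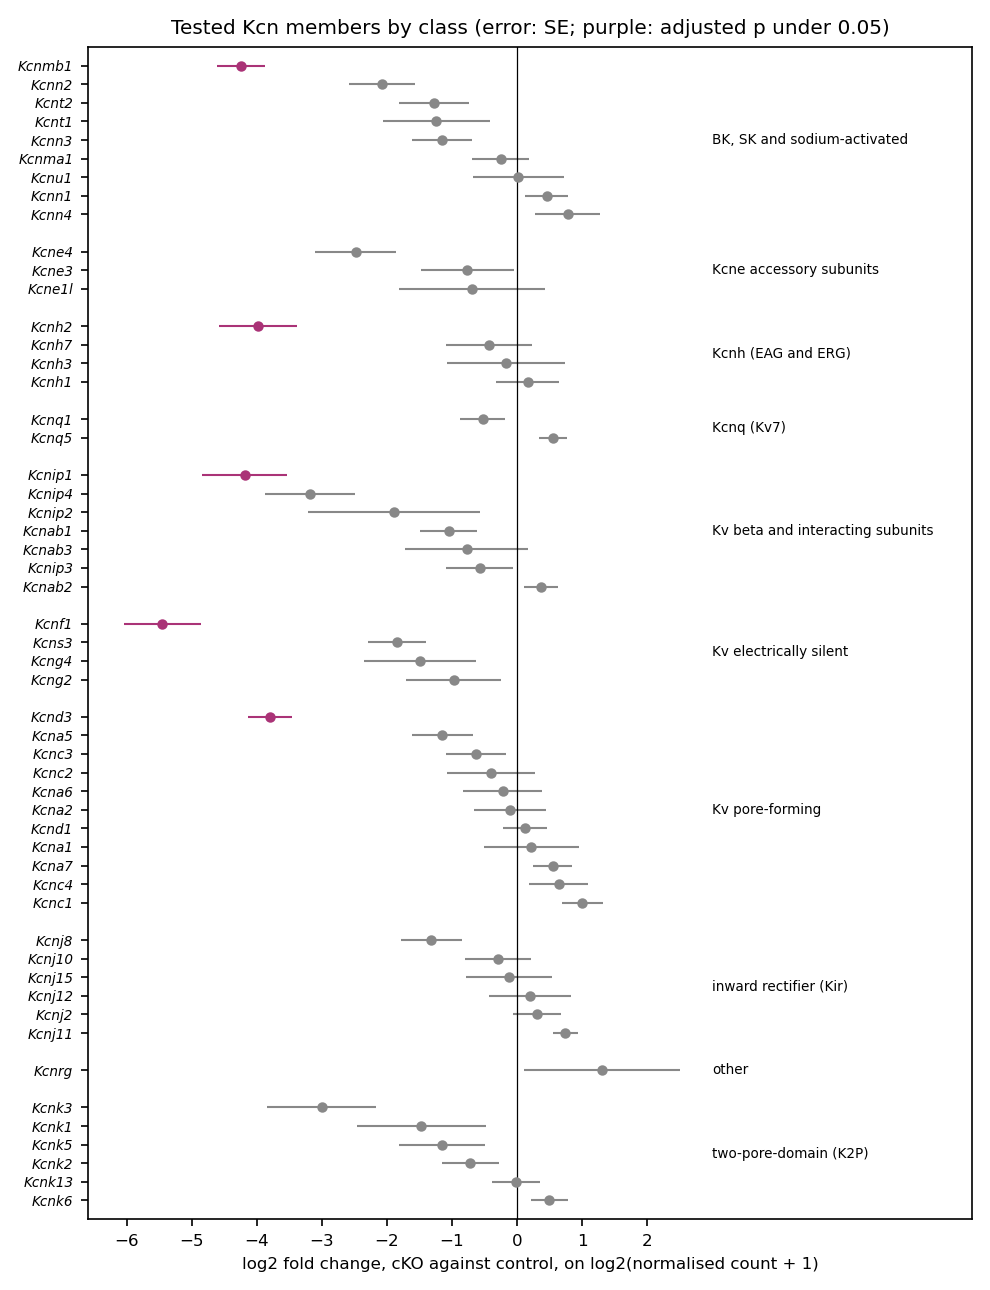
Log2 fold change, cKO against control, on log2(normalised count + 1), for 53 of the 55 tested Kcn members, grouped by channel class; bars are 1 SE and called genes are purple. The called genes drawn all lie left of 0, with Kcnf1 farthest at -5.45.

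Among calcium- and sodium-activated channels, 1 of 9 tested members fell, and it was an accessory subunit of the BK channel rather than its pore. Kcnmb1 (ENSMUSG00000020155, chromosome 11, 33963013 to 33973641) encodes the beta subunit that raises the calcium sensitivity of BK channels in smooth muscle. It had normalised counts of 518, 673 and 307 in control and of 29.7, 17.6 and 26.5 in cKO libraries. The lowest control was far above the highest cKO library. Its means were 499 ± 184 and 24.6 ± 6.31 (SD, n = 3), 20.3-fold lower in cKO, with a log2 fold change of -4.25 ± 0.37 (SE, adjusted p 0.00131). The call held without each library in turn, with log2 fold changes of -4.56 to -4.00. Kcnmb1 lies within the span of Kcnip1 on the opposite strand, with no shared exon, so both falls were counted on separate exons.

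Kcnma1, the pore of the same channel, had 185, 545 and 560.5 in control and 362, 235 and 396 in cKO libraries. The groups overlapped, and the log2 fold change of -0.25 had a 95% interval from -1.27 to 0.77. About 5.98% of its exon bases are shared with a gene on the other strand. Per kilobase, the ratio of Kcnmb1 to Kcnma1 was 11.3, 5.01 and 2.22 in the control libraries and 0.332, 0.303 and 0.272 in the cKO libraries. By this measure all 3 controls had more Kcnmb1 than Kcnma1 and all 3 cKO libraries less. It depends on the merged exon lengths, 4191 bases for Kcnmb1 and 16976 for Kcnma1. In counts, control replicate 3 had less Kcnmb1 (307) than Kcnma1 (560.5). The log2 difference of the ratio was -4.06, which is 16.6-fold, with a two-sided exact permutation p of 0.1, the smallest that 3 against 3 can give. Without control replicate 1 it was -3.47 and without control replicate 3 it was -4.64.

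Smooth muscle markers were also lower in cKO uteri, with a median log2 fold change of -3.84 beside -1.31 over the 15 tested smooth muscle subunits. Of 10 markers, 8 were called lower and 10 had a log2 fold change below 0, and their summed normalised count was 126750 to 156916 in control and 13192 to 14934 in cKO libraries. Myocd, the coactivator of smooth muscle genes, had a count of 0 in cKO replicate 2, and every other marker had reads in each library. Beside Myh11, the smooth muscle myosin heavy chain of the same library, the Kcnmb1 ratio per kilobase was 0.0411, 0.0291 and 0.0171 in control and 0.0376, 0.0209 and 0.0388 in cKO libraries. These values overlapped, with a log2 difference of 0.19 and a two-sided exact permutation p of 0.7, and the difference was -0.15 without control replicate 3. Ratios to Myh11 for 3 more subunits were added after their values were seen. The log2 difference was 0.64 for Kcnd3 (exact p 0.1), -1.17 for Kcnf1 (exact p 0.3) and 0.49 for Kcnh2 (exact p 0.7), and over the 5 ratios the Benjamini-Hochberg values were 0.25 to 0.7. In bulk RNA, fewer smooth muscle cells and less RNA per cell cannot be told apart.

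**Figure D3:**
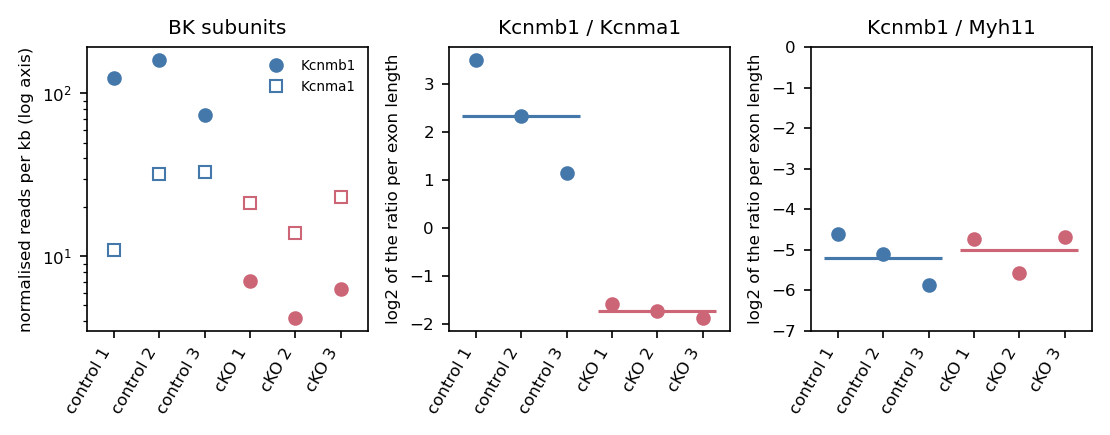
Left, Kcnmb1 (filled) and Kcnma1 (open) in each library in normalised reads per kilobase on a log axis; middle and right, log2 of the ratio of Kcnmb1 to Kcnma1 and to Myh11 per exon length, with lines at the group means and control in blue and cKO in red. The ratio to Kcnma1 lies at or above 1.15 in the controls and at or below -1.59 in the cKO libraries, while the ratio to Myh11 overlaps between the groups.

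The small-conductance SK channels, opened by calcium through calmodulin, gave lower values for 2 of 3 pores without a call. Kcnn2 had 74.4, 57.5 and 44.5 in control and 8.36, 13.7 and 18.8 in cKO libraries, with no overlap, a log2 fold change of -2.07 ± 0.51 (SE, adjusted p 0.107). Kcnn3, a pore known to restrain uterine contraction, had 124, 268 and 525 in control and 109, 118 and 123 in cKO libraries. Control replicate 1 lay just above the highest cKO library, the log2 fold change was -1.15 and the adjusted p 0.32. Without control replicate 1 Kcnn3 was called, at -1.68 and an adjusted p of 0.0269. Kcnn1, known from neurons, had a log2 fold change of 0.46, with overlapping groups. Kcnn4, the intermediate-conductance pore of blood cells and epithelium, had 86.6, 351 and 95.2 in control and 245, 227 and 266 in cKO libraries and was called higher only without control replicate 2, at 1.43 and an adjusted p of 0.0471. DESeq2 called Kcnn2 and Kcnn3 lower, and edgeR neither.

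A-type Kv4 channels activate and inactivate quickly below the firing threshold and are assembled from Kv4 pores, calcium-binding KChIP subunits (Kcnip genes) and dipeptidyl peptidase-like subunits. A pore, a KChIP and Dpp6 fell together in cKO uteri. Kcnd3 (ENSMUSG00000040896, chromosome 3, 105452330 to 105674002), the Kv4 pore of smooth muscle and heart, had 309.7, 428 and 243 in control and 19.5, 27.3 and 19.9 in cKO libraries. The groups were far apart, with means of 327 ± 93.6 and 22.2 ± 4.39 (SD, n = 3), 14.7-fold lower in cKO. The log2 fold change was -3.80 ± 0.34 (SE) with an adjusted p of 0.00141, and the call held without each library in turn. An antisense gene covers 1.72% of its exon bases, and the sources used here do not say whether strand was used in counting.

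Kcnip1 (ENSMUSG00000053519, chromosome 11, 33629339 to 33993152), a KChIP known mainly from neurons, had 61.0, 96.2 and 64.1 in control and 1.86, 1.95 and 6.63 in cKO libraries. It was 21.2-fold lower in cKO by the means, with a log2 fold change of -4.19 ± 0.65 (SE, adjusted p 0.0215). That call was lost without control replicate 2, cKO replicate 1 or cKO replicate 2, at adjusted p of 0.079, 0.0714 and 0.0891, and under limma-voom (0.0719). Kcnip4, also a neuronal KChIP, was the first member outside the threshold, with 39.0, 41.3 and 41.8 in control and 1.86, 2.93 and 7.73 in cKO libraries. Its 3 controls lay close together and far above the cKO libraries, yet with a log2 fold change of -3.18 ± 0.69 (SE) the adjusted p was 0.0722. It was called with a pseudocount of 5 (adjusted p 0.0476), with a stricter read filter (0.0487) and by DESeq2 (0.00112). Opposite-strand genes cover 7.36% of its exon bases.

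Dpp6, which is no Kcn gene but an accessory subunit of Kv4, had 705, 595 and 272 in control and 49.2, 31.2 and 17.7 in cKO libraries, a log2 fold change of -3.96 ± 0.46 (SE) with an adjusted p of 0.00552. It missed the threshold without cKO replicate 2 (0.0568) and under limma-voom (0.0663). Of the rest of the complex, chosen for mention after their values were seen, Kcnd1 was about level, with means of 90.5 and 98.9 and a log2 fold change of 0.12. Kcnd2, the neuronal Kv4 pore, had 6.10, 4.49 and 52.5 in control and 0 in every cKO library, a mean at least 6.99-fold higher in control when cKO is set to 3 reads per library, and at least 1.76-fold without control replicate 3. Kcnip2 had 7.32, 32.4 and 464 in control and 13.9, 14.6 and 9.94 in cKO libraries, so its control mean rested on control replicate 3, the library with the highest neuron marker sum. Kcnip3 overlapped between the groups, with a log2 fold change of -0.57.

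Kv2 channels are slow delayed rectifiers, and the Kcnf, Kcng, Kcns and Kcnv genes encode electrically silent subunits that carry no current alone and modify Kv2 pores. A silent subunit fell in cKO uteri. Kcnf1 (ENSMUSG00000051726, chromosome 12, 17172100 to 17176888), a silent subunit best known from neurons, had 240.2, 789 and 195 in control and 3.72, 9.75 and 7.73 in cKO libraries. Control replicate 2 was the highest, and every control was far above every cKO library. Means were 408 ± 331 and 7.07 ± 3.07 (SD, n = 3), 57.7-fold lower in cKO and the widest ratio among the 55 tested members, with a log2 fold change of -5.45 ± 0.59 (SE, adjusted p 0.00382). Without control replicate 2 the log2 fold change was -4.83 and still called, and limma-voom gave no call (adjusted p 0.267).

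Kcns3, a silent subunit known from vascular and airway smooth muscle, was on no tissue list here. It had 97.5, 117 and 49.8 in control and 23.2, 19.5 and 24.3 in cKO libraries. Its groups did not overlap, and its log2 fold change of -1.85 ± 0.45 (SE) had an adjusted p of 0.101, called without control replicate 3 (0.0422), by DESeq2 (0.00365) and in the authors' deposited table (0.0105). Kcng4 had 23.2, 265 and 157 in control and 22.3, 58.5 and 32.0 in cKO libraries, with a log2 fold change of -1.49 that was called without control replicate 1, at -2.52, and with control replicate 2 as the only control (adjusted p 0.0209). Kcng1 had 56.1, 4.49 and 34.7 in control and 0 in every cKO library, a mean at least 10.6-fold higher in control (6.51-fold without control replicate 1). Kcnv2 had 52.4, 12.6 and 0 in control and 0 in every cKO library, at least 7.20-fold higher in control and at least 2.09-fold without control replicate 1. Amigo1, a partner of Kv2 pores, had a log2 fold change of -0.07 and overlapping groups. Kcnb2, the neuronal Kv2 pore, had 6.10, 31.5 and 48.9 in control and 0, 0 and 2.21 in cKO libraries. Kcng1, Kcnv2 and Kcnb2 had too few reads to be tested and are named after their values were seen. In the authors' deposited table Kcng1 had an adjusted p of 0.000367, Kcnb2 of 0.00988, Kcnd2 of 0.00596 and Kcnv2 of 0.449.

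**Figure D4:**
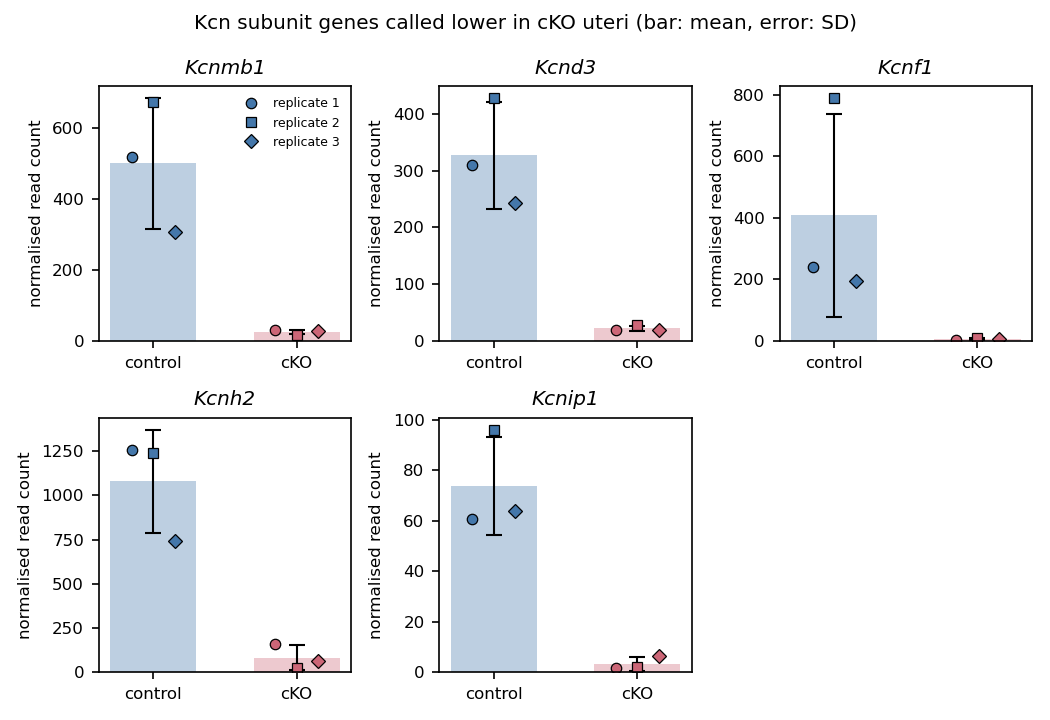
Normalised read counts of 5 called Kcn genes, with bars at the mean, error bars of 1 SD (n = 3) and 1 point per library. In each panel every cKO point lies below every control point; the axes start at 0 and differ between panels.

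ERG and EAG channels are encoded by the Kcnh genes, and 1 of 4 tested fell. Kcnh2 (ENSMUSG00000038319, chromosome 5, 24319589 to 24351604), the ERG pore that carries a slowly closing current in heart and myometrium, had 1256, 1239 and 741 in control and 159.8, 27.3 and 64.1 in cKO libraries. Every control was above every cKO library, while the cKO libraries themselves spread widely. Means were 1079 ± 293 and 83.7 ± 68.4 (SD, n = 3), 12.9-fold lower in cKO, with a log2 fold change of -3.98 ± 0.60 (SE, adjusted p 0.0365). The value was -4.61 when cKO replicate 1 was left out and -3.36 when cKO replicate 2 was. No call remained after leaving out control replicate 2 (adjusted p 0.103), control replicate 3 (0.0571) or cKO replicate 3 (0.237). edgeR gave 0.0739, the fit with no filter on low reads 0.0831, and control replicate 2 as the only control 0.0891. Kcnh1, the EAG pore, and Kcnh7, a neuronal ERG pore, were low, with means of 29.8 and 24.6 in control and 31.6 and 18.9 in cKO uteri and overlapping groups.

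Kcne4, the largest part of the family's difference except without control replicate 1, was not called by limma. It had 1902, 1652 and 358 in control and 177, 181 and 199 in cKO libraries. Control replicate 3 lay near the cKO libraries and far below both other controls, the log2 fold change was -2.48 ± 0.62 (SE) and the adjusted p 0.16. Without control replicate 3 it was called at -3.25, with an adjusted p of 0.00057. With all libraries, DESeq2 gave Kcne4 an adjusted p of 1.74e-07, the authors' deposited table gave 4.4e-09 and edgeR gave 0.123. Kcne3, a partner of Kv3 channels in skeletal muscle and of Kcnq1 in epithelium, and Kcne1l were low and overlapped, with log2 fold changes of -0.76 and -0.69. None of the 3 tested Kcne genes was called by limma, 1 had an unadjusted p under 0.05, edgeR called 0 and DESeq2 called 1.

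Kv7 pores, encoded by Kcnq genes, open slowly and steady the resting voltage, and none of the 3 tested was called. Kcnq5, a Kv7 pore of smooth muscle, had 280.4, 349 and 314 in control and 352, 514 and 540.3 in cKO libraries. All cKO values were above the controls, by a narrow margin at the lowest, with a log2 fold change of 0.56 ± 0.21 (SE, adjusted p 0.294). It was the single smooth muscle subunit of 15 tested with a value above 0. Kcnq1 had means of 69.0 ± 6.66 and 48.0 ± 9.24 (SD, n = 3), with no overlap and an adjusted p of 0.565. Of the 3 tested Kcnq genes limma called 0, with 1 at an unadjusted p under 0.05, and edgeR and DESeq2 called 0.

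Of the remaining voltage-gated pores, which set the shape and rate of action potentials, those of the Kv3 group included a gene with higher values. Kcnc1, a fast Kv3 pore of neurons and muscle, had 95.1, 194 and 136 in control and 289.9, 209.7 and 340.3 in cKO libraries, with no overlap, a log2 fold change of 1.01 ± 0.31 (SE, adjusted p 0.188). Kcnc4, a Kv3 pore of skeletal muscle, had means of 144 ± 62.5 and 231 ± 112 (SD, n = 3) with overlapping groups. Kcna7, a Kv1 pore of skeletal muscle and heart, had 109.7, 216 and 152 in control and 214, 181 and 292 in cKO libraries, which overlapped, with a log2 fold change of 0.55. Kcna5, the Kv1 pore of vascular smooth muscle, had 133, 146 and 197 in control and 33.5, 135 and 75.1 in cKO libraries, overlapping, with a log2 fold change of -1.15 (adjusted p 0.325). Of the Kv beta subunits, Kcnab1 had a log2 fold change of -1.05 (adjusted p 0.328) and Kcnab2 of 0.37 (0.601). Kcnrg, a regulator of Kv channel assembly, had 24.4, 9.89 and 0 in control and 12.1, 9.75 and 28.7 in cKO libraries, too spread to tell apart.

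Inward rectifiers pass potassium best near rest and hold the resting voltage; Kcnj8 and Kcnj11 are the pores of KATP channels, which ATP closes and which also need a sulphonylurea receptor. The pore of vascular smooth muscle and pericytes and the pore of skeletal muscle had log2 fold changes of opposite sign, and limma called neither. Kcnj8 had 296, 772 and 1213 in control and 263, 289.6 and 235 in cKO libraries. Control replicate 1 lay just above the cKO libraries, the log2 fold change was -1.31 ± 0.47 (SE) and the adjusted p 0.278. Without control replicate 1 it was called at -1.88, with an adjusted p of 0.00341. DESeq2 gave an adjusted p of 0.00726 and the authors' deposited table gave 0.00332. The 5 mural cell markers took 0.0425%, 0.0701% and 0.156% of normalised counts in control replicates 1, 2 and 3 and 0.0454% to 0.0562% in cKO libraries. Among these markers the control order of Kcnj8 was seen in Rgs5 only (4124, 6964 and 18272), which was the largest part of the sum. Pdgfrb had 1733, 1559 and 1576 in control. Pdgfrb and Notch3 had every cKO library above every control, Cspg4 had every cKO library below, and Rgs5 and Higd1b overlapped. limma called none of the 5, with 2 at an unadjusted p under 0.05 and 0 called by edgeR or DESeq2. The part of mural cells in the Kcnj8 values was not tested.

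Kcnj11 had 599.9, 743 and 481 in control and 991, 945 and 1078 in cKO libraries. Every cKO library was above every control, with means of 608 ± 131 and 1005 ± 67.8 (SD, n = 3), 1.65-fold higher in cKO. The log2 fold change was 0.74 ± 0.19 (SE) with an adjusted p of 0.116, while DESeq2 gave an adjusted p of 0.0284 and the authors' deposited table gave 0.048. The receptors Abcc9 and Abcc8 had log2 fold changes of -0.15 and 0.52 and overlapping groups. Kcnj2, the classical inward rectifier, had 795, 702 and 560.5 in control and 1449.6, 485 and 849 in cKO libraries; the groups overlapped, and its log2 fold change of 0.31 turned to -0.08 without cKO replicate 1. Of the 6 tested Kir genes limma called 0, with 2 at an unadjusted p under 0.05, edgeR called 0 and DESeq2 called 1 higher and 1 lower.

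The 7 tested skeletal muscle subunits were called by limma in 0 cases, with 1 (Kcnj11) at an unadjusted p under 0.05. edgeR called 0, and DESeq2 called 1 higher. Their median log2 fold change was 0.31, with 5 above 0. The 12 skeletal muscle markers all had log2 fold changes above 0, with a median of 0.89 and 1 called higher, and their part in these values was not tested. With skeletal muscle and mitochondrial genes left out of the library sizes, 6 Kcn members were still called lower.

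Tandem-pore K2P channels carry the background leak of potassium, and 0 of 6 tested were called by limma, with 1 at an unadjusted p under 0.05, 0 by edgeR and 1 by DESeq2. Kcnk3, the acid-sensitive leak channel of vascular smooth muscle, had 54.9, 193 and 536 in control and 24.2, 40.0 and 9.94 in cKO libraries. The groups did not overlap, but the controls spread widely, and the log2 fold change of -3.004 ± 0.84 (SE) had an adjusted p of 0.171. Without control replicate 1 it was called at -3.85 (adjusted p 0.0177). A gene on the other strand covers 5.76% of its exon bases. Kcnk5, an epithelial leak channel, had 251, 243 and 45.4 in control and 39.0, 79.0 and 79.6 in cKO libraries, so control replicate 3 was within the cKO range; without that library it was called at -1.96. Epithelial markers were also low in control replicate 3, with a summed normalised count of 400.3 beside 5800.0 and 2259 in control replicates 1 and 2. In cKO libraries the sum was 359 to 674, and Foxa2 was at 0 in control replicate 3 and all cKO libraries. Liver markers were highest in control replicate 1 and intestinal markers in control replicate 2. The tissue that gave the epithelial marker reads was not tested. Of the 6 epithelial markers 5 were tested and limma called 0, with 2 at an unadjusted p under 0.05, 0 called by edgeR and 2 by DESeq2. The part of these epithelial markers in the Kcnk5 values was not tested. Kcnk6 had a log2 fold change of 0.50 and overlapping groups.

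By list, 4 of the 15 tested smooth muscle subunits were called lower, Kcnmb1, Kcnd3 and Kcnh2 among them, and 0 higher, 10 had all cKO libraries below all controls, and the median log2 fold change was -1.31. Of the 15 tested neuronal subunits, 2 were called lower (Kcnf1 and Kcnip1) and 0 higher, with a median of -0.40. Of the 7 tested subunits of other cells and of the 11 tested unlisted members, 0 were called, with 0 and 2 at an unadjusted p under 0.05 and 0 and 1 called lower by DESeq2. Higher calls by edgeR were 0 on every list, and the 1 higher call by DESeq2 was Kcnj11. These lists rest on general knowledge and were drawn up with results of these samples known.

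Several neuronal subunits were high in a single control library. Of the 26, 12 (46.2%) were highest in control replicate 3, beside 20.0% of all protein-coding rows. Of the 16 smooth muscle subunits 6 (37.5%) were highest there too, and of all 89 members 26 (29.2%). Kcnq3, a pore of the neuronal M-current, had 0, 10.8 and 39.1 in control and 0.929, 0 and 0 in cKO libraries. Kcna2, a pore of myelinated axons and the highest of the list in counts, had 259.7, 295 and 1103 in control and 449.7, 307 and 495 in cKO libraries. Only control replicate 3 stood above the rest, and its log2 fold change of -0.10 turned to 0.56 without that library. Neuron markers followed the same library. Of 14, 9 were tested and 2 called lower, and their summed normalised count was 686, 1496 and 8073 in control and 728 to 882 in cKO libraries, with Chat, Elavl3 and Snap25 among those at 0 in all cKO libraries.

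Kcnf1 and Kcnip1 were not highest in control replicate 3. Kcnf1 was highest in control replicate 2, at 789, and lowest of the controls in control replicate 3, at 195. Kcnip1 was highest in control replicate 2 and had 61.0 in control replicate 1. Of the 9 tested neuron markers, 2 also had every cKO library below every control. Snap25, 1 of these, had 19.5, 98.0 and 693 in control and 0 in every cKO library. The part of neurons in the Kcnf1 and Kcnip1 values was not tested. Without control replicate 3 Kcnf1 and Kcnip1 were still called, at -5.84 and -4.28 (adjusted p 0.00484 and 0.0395). With control replicate 2 as the only control, a choice made after the data were seen, 8 Kcn members were called lower, with Kcnf1 among them and Kcnip1 not (adjusted p 0.0647).

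**Figure D5:**
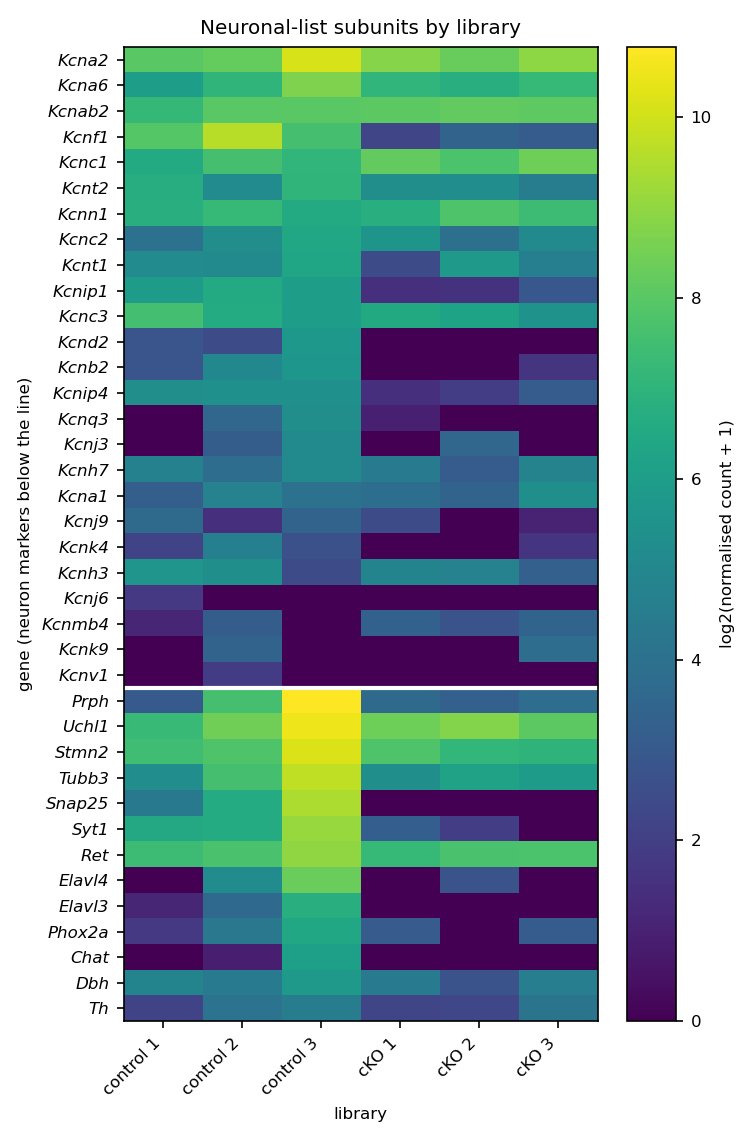
Heat map of log2(normalised count + 1) in each library for 25 of the 26 neuronal-list subunits (above the white line) and 13 of the 14 neuron markers (below), each sorted by control replicate 3. Kcnq3 is brightest in control replicate 3, as the markers are, whereas Kcnf1 and Kcnip1 are bright in all 3 controls and dark in all 3 cKO libraries.

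Other genes that sit on potassium channels or act against them on membrane voltage were read from lists of 17 partners and 25 excitation genes. Of 14 tested partners, 1 (Dpp6) fell and 0 rose, and 13 were not called. Cntnap2, which clusters Kv1 channels on axons, and Kctd12, an accessory protein of GABA-B receptors that open Kir channels, had log2 fold changes of -1.90 (adjusted p 0.317) and -0.67 (0.178). Of 25 tested excitation genes, 4 fell and 0 rose, with a median log2 fold change of -0.60. Cacna1h, a T-type calcium channel pore, had 675, 1035 and 1202 in control and 180.3, 222 and 213 in cKO libraries, with no overlap, a log2 fold change of -2.20 ± 0.23 (SE, adjusted p 0.00373). Trpc4, a receptor-operated cation channel, fell by 2.94 on the log2 scale (adjusted p 0.0192), and Cacna1c, the L-type pore that triggers contraction, by 1.20 (0.0283). For the higher direction, limma had 1 of the 25 at an unadjusted p under 0.05, edgeR called 0 and DESeq2 1. The 5 lower calls over both lists became 8 without control replicate 1, 2 without control replicate 2 or cKO replicate 3 and 1 without cKO replicate 2. Cacna1h was called without each library in turn. Trpc4 and Cacna1c lost the call without control replicate 2, at adjusted p of 0.0509 and 0.0586, and also without cKO replicate 2 or 3.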

How the data were processed

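Uterus RNA of 3 control and 3 cKO animals was sequenced as 1 library per animal, processed together per the labels. HISAT2, SAMtools and featureCounts are named, without versions, in the submitters' processing notes, which give the build as GRCm39. However, 25257 of 26006 matched gene identifiers have exactly the coordinates of GENCODE vM21, so GRCm38 is used for positions. The authors deposited a signal per gene and library, called normalised count here, which is a read count divided by 1 size factor per library. All values came out as whole reads within 0.01, 14584450 to 16579573 per library, and these recovered counts served edgeR and DESeq2. The authors also deposited a log2 fold change, a p-value and an adjusted p-value per gene.

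Here, limma 3.58.1 (R 4.3.3, mean-variance trend, robust) was run on log2(value + 1), with genes of few reads removed by edgeR's filterByExpr, on 16314 genes. edgeR 4.0.16 and DESeq2 1.42.0 were alternatives, as were limma-voom, other pseudocounts, filters and scalings, a replicate block and leaving out each library. Steps were tested on simulated data. The limma p-values set the difference between the groups against the spread between animals, 3 per group, moderated across genes. Ratios within a library were compared with exact permutation tests. Exon overlaps were read from GENCODE vM21. Members and lists (subunits by tissue, partners, excitation genes, markers of smooth and skeletal muscle, neurons, Schwann cells, endothelium, mural cells, epithelium, uterus, macrophages, adipocytes, liver and intestine) were chosen with earlier results of these data known. Named members are those called; Kcnmb1, Kcnd3 and Kcnf1; the 6 highest per exon length; up to 3 of smallest p per class; the 4 highest per list; and those with separate groups and an unadjusted p under 0.01. Named partner and excitation genes are those called, or up to 3 per list by smallest p. Others are named after their values were seen. Some genes that this rule names are not reported here or drawn.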

Additional observations from a re-analysis of the deposited data

How the results depend on the processing

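Kcnmb1 and Kcnd3 kept their call in all 18 alternatives and Kcnf1 in all but limma-voom. Beside 6 Kcn members lower and 0 higher, DESeq2 called 13 lower and 1 higher, and leaving out 1 library gave 4 to 10 lower and 0 to 1 higher (10 without control replicate 1, 4 without control replicate 2 or any cKO replicate). Beside 145 genes lower and 45 higher in all, DESeq2 called 578 and 280.0, limma-voom 82 and 19, control replicate 2 as the only control (added after the data were seen) 504 and 271, and no read filter 82 higher; leaving out 1 library gave 42 to 347 lower and 1 to 117 higher. Beside 5 partner and excitation genes lower and 0 higher, DESeq2 called 9 and 1, limma-voom 3 lower, the single control 8 and 1, and leaving out 1 library 1 to 8 lower. With 1 library left out, the log2 fold change changed sign for Kcna2 (-0.48 to 0.56), Kcnh7 (-0.79 to 0.079), Kcnh1 (-0.046 to 0.50), Kcnrg (-0.045 to 2.29) and Kcnj2 (-0.082 to 0.71). It did so too with the single control for Kcna2 (0.47), Kcnh7 (0.30), Kcne3 (0.034) and Kcnk6 (-0.039). The log2 difference of the Kcnmb1 to Myh11 ratio ran from -0.15 to 0.48 and that of Kcnmb1 to Kcnma1 from -4.64 to -3.47 when 1 library was left out. The cause of these differences was not tested. In the fit with control replicate 2 alone, that library is assumed to vary like the cKO group.

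The labels do not say whether same-numbered libraries form pairs. Same-numbered libraries had deviations from the group means correlated at 0.01, -0.18 and 0.04, and differently numbered ones at -0.12 to 0.10. With 3 animals per group these values cannot decide it. With the replicate block, 6 Kcn members were lower and 0 higher, and 149 genes lower and 34 higher in all.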

Other observations

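Among the antisense rows next to Kcn genes, Kcnd3os, on the strand opposite the start of Kcnd3, had normalised counts of 9.75, 8.99 and 0 in control and 0 in all 3 cKO libraries. Kcnq1ot1, the long RNA antisense to Kcnq1, had 179, 145 and 246 in control and 180.3, 282 and 177 in cKO libraries, with overlapping groups. Kcnab3os and Kcnmb4os2 had means of 0 and 2.10 in control and 1.61 and 3.25 in cKO uteri. No test was made on Kcnd3os, Kcnab3os or Kcnmb4os2, which had too few reads.

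Marker lists beside those given with the results were as follows. Of 6 Schwann cell markers, 2 were called higher in cKO uteri and 0 lower. None of 5 endothelial, 4 macrophage and 4 adipocyte markers was called by limma, with 0, 2 and 0 at an unadjusted p under 0.05. edgeR called 0 of each, and DESeq2 1 macrophage marker. Of the 6 uterine genes limma called 0, with 4 at an unadjusted p under 0.05, edgeR 0 and DESeq2 5 lower. Of the 5 liver markers limma and edgeR called 0, with 0 at an unadjusted p under 0.05 by limma. DESeq2 gave no adjusted p for any of these 5 liver markers, so it could make no call. Of the 5 intestinal markers 1 was tested, called lower by DESeq2 and not by limma or edgeR.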
